A study of Mus musculus with 18 samples.

Results

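Induced pluripotent stem (iPS) cells are body cells that have been returned to a state like that of embryonic stem (ES) cells. IP20D-3 and IP36D-3 are mouse iPS lines of the same strain label, B6 x D2 F1, and IP20D-3 was set against IP36D-3 here. They were taken by the titles of the arrays, which gave 3 arrays of IP20D-3 and 3 arrays of IP36D-3, 6 of the 18 arrays of the series. Both lines belong to the pair in the series with little Meg3, a maternally expressed non-coding RNA of the imprinted Dlk1-Dio3 domain, so the comparison runs between lines that share this trait. The other 12 arrays came from 4 lines, which are the B6 x D2 F1 iPS line IP14D-1, the B6 x 129S2 F1 iPS line IP14D-101, the B6 x D2 F1 ES line ESC2 and the 129X1/SvJ x 129S1 F1 ES line R1. According to the labels, all lines grew with LIF on mouse embryonic fibroblasts that mitomycin C had stopped from dividing, in medium with either fetal bovine serum or Knockout serum replacement. Which of these supplements a given line received is not in the labels used here, so line and medium cannot be told apart. Each side of the comparison is 1 cell line, the reprogramming method is not in the labels, and separate cultures are not stated for the arrays of a line, which the design text calls biological replicates. The p-values therefore measure the spread between arrays of a line and do not reach to iPS lines in general.

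Mouse pluripotent cells are known in a naive state, which resembles the inner cell mass and is held by LIF, STAT3 and factors such as Klf2, Klf4, Esrrb and Tbx3, and in a primed state, which resembles the later epiblast, depends on FGF and Nodal signals and expresses Fgf5, Otx2, Pou3f1 and the de novo DNA methyltransferases. Cells in serum and LIF commonly hold a mixture of both. A further programme that matters below is the integrated stress response, in which lack of amino acids or misfolded protein leads to translation of the transcription factor ATF4, which with its partner CHOP (the product of Ddit3) turns on genes for amino acid uptake and synthesis.

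Levels are log2 of the deposited RMA intensity, and 1 unit on this scale is a doubling. Differences are given as IP20D-3 minus IP36D-3, with the standard error (SE) of the limma fit. The median of all probe sets lay between 4.868 and 4.931 on the 18 arrays. A level below about that median is not shown to be above background, and a small change there can be hidden. All 6 pluripotency markers that served to check the labels (Pou5f1, Nanog, Sox2, Zfp42, Dppa5a and Utf1) had a mean of at least 6 in both lines. None of the 9 measured markers of feeder fibroblasts did so in either line, and their linear signals summed to between 156.3 and 173.2 on the IP20D-3 arrays and between 183.1 and 187.7 on the IP36D-3 arrays. Arrays of IP20D-3 correlated with each other at 0.9956 to 0.997 and arrays of IP36D-3 at 0.9966 to 0.9969, against 0.9798 to 0.9847 between the lines. The signal of the 18S ribosomal RNA control was 178.3, 249.8 and 539.5 in IP20D-3 and 160.6, 185.1 and 242.3 in IP36D-3, and the ratio of the 3' to the 5' actin probe sets was between 1.262 and 1.308 on the IP20D-3 arrays and between 1.242 and 1.285 on the IP36D-3 arrays.

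Of 18193 genes, 772 (4.24%) were called, meaning that the adjusted p was under 0.05 and the lines differed by at least 1 on the log2 scale. In IP20D-3, 429 genes (2.36%) were higher and 343 (1.89%) were lower than in IP36D-3. Among single probe sets, 1352 of 34945 (3.87%) were called. IP20D-3 was the line that stood outside the others more often. It had the highest mean of all 6 lines in 393 of the 429 higher genes, while IP36D-3 had the lowest in 79. Of the 343 lower genes, IP20D-3 had the lowest mean of the 6 lines in 273 and IP36D-3 the highest in 113.

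**Figure D1:**
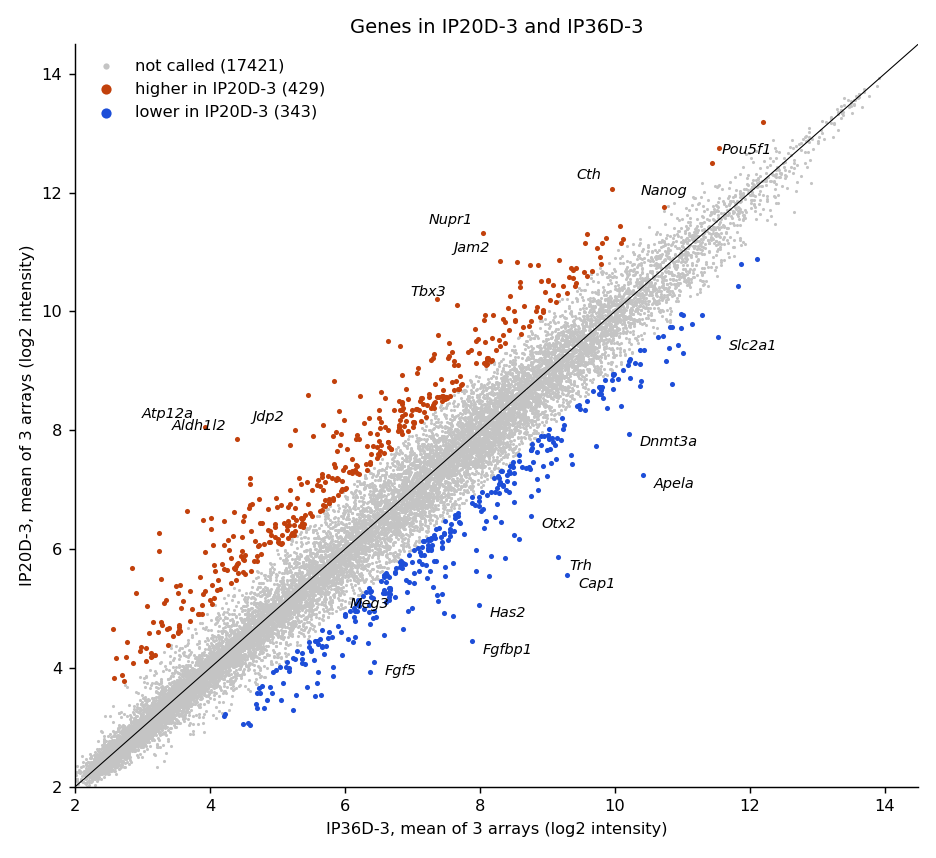
Mean log2 intensity of each of 18193 genes in IP20D-3 (vertical axis) and IP36D-3 (horizontal axis), each over 3 arrays. Orange points are the 429 genes called higher and blue points the 343 called lower in IP20D-3, grey points were not called, and the line marks equal levels. Atp12a, Aldh1l2 and Nupr1 lie farthest above the line among the labelled genes, Cap1, Fgfbp1 and Trh farthest below it, and Pou5f1 lies on it.

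The core factors of pluripotency were present in both lines, while genes of the naive state were among the rises in IP20D-3 and genes of the primed state among the falls. Of 33 measured pluripotency genes, 11 were higher and 1 was lower in IP20D-3, with a median difference of 0.46, against a median of -0.04 over all genes. Of 19 measured genes of the primed epiblast, none was higher and 11 were lower, with a median of -1.26. No test of the lists was made. Counts of every list here and below stand beside shares of 2.36% higher and 1.89% lower over all genes. A count of 0 or 1 in a short list is not far from these shares. IP20D-3 was at the outer end of the 6 lines in most calls of any kind (393 of 429 higher, 273 of 343 lower). List counts of that trait are to be read beside this. Negative differences were also common over all genes (10081 of 18193).

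Pou5f1, which encodes the central pluripotency factor OCT4, had levels of 12.52, 12.54 and 12.44 on the IP20D-3 arrays and 12.48, 12.52 and 12.46 on the IP36D-3 arrays. The arrays of the lines overlapped, and the difference was 0.01 with a 95% interval of -0.16 to 0.19. Sox2, its partner on DNA, measured 12.20, 12.20 and 12.12 in IP20D-3 and 11.74, 11.72 and 11.68 in IP36D-3, a difference of 0.46 ± 0.08 (SE, adjusted p = 0.0001706). Nanog, a homeobox factor that stabilises the network, measured 11.85, 11.87 and 11.70 in IP20D-3 and 11.19, 11.32 and 11.20 in IP36D-3, a difference of 0.57 ± 0.09 (SE, adjusted p = 4.775e-05). For both genes every IP20D-3 array lay above every IP36D-3 array, but the differences were short of 1 and were not called.

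The largest rise in the list was that of Jam2, a junctional adhesion protein, at 10.82, 10.96 and 10.76 in IP20D-3 and 8.30, 8.33 and 8.28 in IP36D-3. It was 5.82-fold higher (difference 2.54 ± 0.10 SE, adjusted p = 4.959e-12), and 4 of 4 further probe sets of the gene were called in the same direction. Tbx3, a T-box factor that sustains self-renewal, stood at 10.15, 10.09 and 10.09 in IP20D-3 and 7.85, 7.73 and 7.38 in IP36D-3, a 5.48-fold rise (adjusted p = 5.415e-11). The highest mean of Tbx3 among the other 4 lines was 8.97, so IP20D-3 was above the whole range of the series while IP36D-3 lay within the range of the other lines, whose lowest mean was 7.0004. Pecam1, an adhesion molecule on the surface of naive cells, gave 9.22, 9.24 and 9.19 in IP20D-3 and 7.41, 7.28 and 7.21 in IP36D-3 (3.78-fold, adjusted p = 1.452e-10). Tcl1, a co-activator of the kinase AKT, gave 9.78, 9.79 and 9.52 in IP20D-3 and 8.03, 7.85 and 7.91 in IP36D-3 (3.41-fold, adjusted p = 1.81e-10). In each of these genes the arrays of the lines were apart by more than the spread within either line.

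Further transcription factors of the naive state were also higher. Klf2, a zinc-finger factor that ERK signalling holds down, measured 11.22, 10.99 and 11.22 in IP20D-3 and 9.71, 9.56 and 9.42 in IP36D-3 (difference 1.59, adjusted p = 7.451e-10). The orphan nuclear receptor Nr0b1 measured 11.32, 11.27 and 11.30 in IP20D-3 and 9.64, 9.58 and 9.56 in IP36D-3 (3.27-fold, adjusted p = 1.691e-11). Prdm14, which is known to restrain FGF signalling and DNA methyltransferase genes, measured 8.03, 8.32 and 8.37 in IP20D-3 and 6.74, 6.92 and 6.89 in IP36D-3 (2.63-fold, adjusted p = 7.146e-09). Differences of the remaining called members were smaller. They were 1.17 for Tfcp2l1, a target of STAT3, 1.13 for Manba, a lysosomal mannosidase, 1.12 for the nuclear receptor Esrrb and 1.10 for Klf4, one of the classical reprogramming factors. The call of Klf4 depended on the probe set, because the gene was not called on its probe set with the highest standard deviation. Dppa3 (Stella), which protects the oocyte's methylation marks after fertilisation, was the single lower call of the list. Differences of 7 further members, among them Utf1 (-0.51) and Lin28a (-0.36), were also negative without a call. Dppa3 measured 8.35, 8.40 and 8.47 in IP20D-3 and 9.45, 9.38 and 9.46 in IP36D-3, and fell by 1.02 (adjusted p = 5.888e-09), a size close to the minimum for a call, which was lost without the first IP20D-3 array.

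Fgf5, the growth factor that defines the primed epiblast, had levels of 3.77, 3.99 and 4.52 in IP20D-3 and 6.41, 6.45 and 6.41 in IP36D-3. The IP20D-3 arrays were below the array median, and the fitted difference was -2.33 ± 0.21 (SE, adjusted p = 1.233e-07). Otx2, a homeobox factor of the primed epiblast and forebrain, measured 6.38, 6.35 and 6.96 in IP20D-3 and 8.68, 8.85 and 8.73 in IP36D-3 (4.56-fold lower, adjusted p = 1.378e-08). Pou3f1 (OCT6) measured 6.35, 6.69 and 6.59 in IP20D-3 and 8.03, 8.20 and 8.43 in IP36D-3 (3.19-fold lower, adjusted p = 4.714e-08). The basic helix-loop-helix factor Tcf15 measured 7.60, 7.75 and 7.86 in IP20D-3 and 9.54, 9.74 and 9.86 in IP36D-3 (3.93-fold lower, adjusted p = 4.075e-09). No array of IP20D-3 reached the lowest array of IP36D-3 in any of these genes. The zinc-finger gene Sall2 fell by 2.03, the ligand gene Wnt8a by 1.33, Car14 by 1.30, Lef1 by 1.26 and the ectonucleotidase gene Enpp3 by 1.10. In 10 of the 11 lower genes IP20D-3 had the lowest mean of all 6 lines. The exception was Fgf5, with a mean of 4.03 in IP14D-101 and 4.09 in IP20D-3. For Otx2 the mean of R1 (6.57) was about that of IP20D-3 (6.56), and IP36D-3 had the highest mean of the 6 lines (8.75). Not every gene of the list was lower, since Foxd3 differed by 0.01 (95% interval -0.22 to 0.25) and Cdh2 (N-cadherin) by 0.25, and neither was called.

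The remaining calls of the primed list were the de novo DNA methyltransferases, enzymes that set new methyl marks on CpG sites. Dnmt3a stood at 7.91, 7.88 and 8.04 in IP20D-3 and 10.22, 10.17 and 10.23 in IP36D-3, a 4.79-fold fall (difference -2.26 ± 0.12 SE, adjusted p = 2.047e-10). The arrays within a line differed by less than 0.2, and all 4 further probe sets of Dnmt3a were lower in IP20D-3, 2 of them called. Dnmt3b stood at 10.42, 10.47 and 10.41 in IP20D-3 and 11.84, 11.78 and 11.87 in IP36D-3, a 2.63-fold fall (adjusted p = 1.536e-10). Dnmt3l, the inactive cofactor of both enzymes, measured 11.32, 11.21 and 11.48 in IP20D-3 and 11.68, 11.60 and 11.66 in IP36D-3, and its difference of -0.31 was not called. In a list of 16 genes of DNA methylation and its removal, the other call was Tet2, a dioxygenase that oxidises methylcytosine, at 9.79, 9.67 and 9.74 in IP20D-3 and 8.70, 8.78 and 8.44 in IP36D-3 (2.13-fold higher, adjusted p = 4.856e-06). Without the third IP36D-3 array Tet2 no longer reached the minimum difference. The maintenance enzyme Dnmt1 differed by -0.26 and Tet1 by 0.51, both without a call. None of 19 measured Polycomb genes was called, and their differences ran from -0.87 for Cbx2 to 0.77 for Aebp2.

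**Figure D2:**
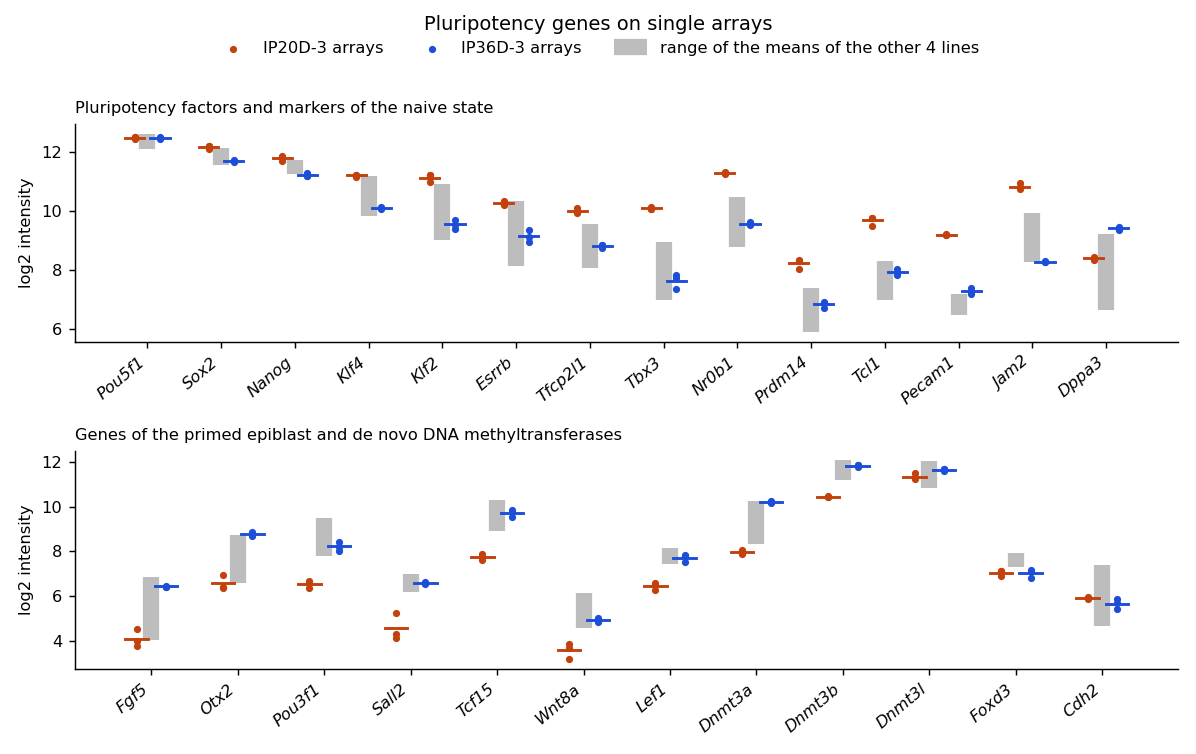
Log2 intensity on single arrays of IP20D-3 (orange, left of each pair) and IP36D-3 (blue), with line means as bars and the range of the means of the other 4 lines in grey. Tbx3, Pecam1 and Jam2 of IP20D-3 lie above the grey range and Dnmt3b, Sall2 and Pou3f1 of IP20D-3 lie below it, while Pou5f1 is at the same level in both lines.

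Signals that act on this balance were examined next. In the FGF and ERK list, none of 17 measured genes was higher and 3 were lower, with a median of -0.48. These were Dusp6, an ERK phosphatase and a standard readout of ERK activity, at 8.99, 8.80 and 8.72 in IP20D-3 and 10.49, 10.52 and 10.13 in IP36D-3 (2.92-fold lower, adjusted p = 5.764e-09), Dusp5 (difference -1.25) and Ier3 (difference -1.13). Both are also induced by ERK. Feedback inhibitors of the same pathway pointed the same way without a call, with -0.98 for Spry4 and -0.71 for Spry1, and Egr1 (0.02), Spry2 (-0.09) and Dusp4 (0.32) were not called either.

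In the list for Nodal, BMP and Wnt signals, none of 20 measured genes was higher and 4 were lower (median -0.39). Id1, a direct target of BMP signals, measured 8.59, 8.56 and 9.21 in IP20D-3 and 10.95, 10.94 and 10.63 in IP36D-3 (4.16-fold lower, adjusted p = 3.496e-08). Its relative Id3 was 2.17-fold lower. Lefty1, an antagonist and target of Nodal, measured 9.50, 9.30 and 9.10 in IP20D-3 and 11.20, 11.02 and 10.79 in IP36D-3 (3.26-fold lower, adjusted p = 2.958e-08). Lef1, a nuclear effector of Wnt signals, was 2.39-fold lower. The ligand Nodal itself differed by 0.17 (95% interval -0.04 to 0.38) and was not called.

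The LIF and STAT3 list was split. Lifr, the LIF receptor, stood at 9.15, 9.24 and 9.15 in IP20D-3 and 8.07, 8.14 and 8.09 in IP36D-3 (2.12-fold higher, adjusted p = 3.199e-07). Of 17 measured genes, Klf4 and Tfcp2l1 were the other higher ones, and 4 were lower, for a median of -0.07. Gbx2, a homeobox target of STAT3, measured 5.72, 5.68 and 5.50 in IP20D-3 and 7.79, 8.002 and 8.04 in IP36D-3 (4.97-fold lower, adjusted p = 2.441e-09). Bcl3, a nuclear relative of the inhibitors of NF-kappa B, fell by 1.32, Ier3 by 1.13 and Socs3, the feedback inhibitor of the receptor, by 1.04, which was no call without the third IP20D-3 array. Targets of 1 pathway therefore lay on both sides.

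Myc, the growth regulator and reprogramming factor, measured 6.89, 7.11 and 6.9955 in IP20D-3 and 8.83, 8.89 and 8.84 in IP36D-3, and was 3.62-fold lower (adjusted p = 7.311e-11). The other 4 lines averaged between 8.50 and 9.27, so IP20D-3 was the low line. It was the only call among 11 measured genes of the Myc family and its partners (median -0.28), and Mycn differed by 0.07 (95% interval -0.15 to 0.28).

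The stress and amino acid genes were the other set with many rises. Of 26 measured genes of the integrated stress response and the unfolded protein response, 10 were higher and 1 was lower in IP20D-3 (median 0.79). Of 29 measured genes of amino acid transport, amino acid synthesis and folate metabolism, 10 were higher and none was lower (median 0.68). ATF4 and CHOP are known to bind a composite DNA element, and the letters TGATGNAA on either strand were searched in windows of 300 bases, from 250 before to 50 after the start of the gene, in RefSeq promoters of build GRCm38.p6. Windows of 5 called stress genes that hold it are shown because these genes carry the result. Each is printed in the direction of its gene, and capitals mark the match.
Nupr1 promoter, chr7:126625421-126625720, minus strand: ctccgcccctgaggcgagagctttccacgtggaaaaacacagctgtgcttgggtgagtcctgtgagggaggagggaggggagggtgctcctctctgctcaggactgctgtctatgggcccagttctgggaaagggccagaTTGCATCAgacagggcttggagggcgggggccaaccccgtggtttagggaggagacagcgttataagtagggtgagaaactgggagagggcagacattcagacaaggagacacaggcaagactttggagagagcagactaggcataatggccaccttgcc
Jdp2 promoter, chr12:85599166-85599465, plus strand: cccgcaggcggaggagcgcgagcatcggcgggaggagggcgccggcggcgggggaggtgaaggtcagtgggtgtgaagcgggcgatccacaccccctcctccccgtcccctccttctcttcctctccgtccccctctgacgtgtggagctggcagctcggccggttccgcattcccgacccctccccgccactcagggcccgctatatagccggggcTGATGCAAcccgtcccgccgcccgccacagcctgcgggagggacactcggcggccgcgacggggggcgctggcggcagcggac
Vldlr promoter, chr19:27216770-27217069, plus strand: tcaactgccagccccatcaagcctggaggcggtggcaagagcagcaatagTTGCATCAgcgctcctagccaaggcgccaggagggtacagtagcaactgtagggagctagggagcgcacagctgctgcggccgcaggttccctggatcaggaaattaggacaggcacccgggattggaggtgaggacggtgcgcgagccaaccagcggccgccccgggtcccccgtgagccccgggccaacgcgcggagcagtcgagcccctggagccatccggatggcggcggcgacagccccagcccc
Trib3 promoter, chr2:152344011-152344310, minus strand: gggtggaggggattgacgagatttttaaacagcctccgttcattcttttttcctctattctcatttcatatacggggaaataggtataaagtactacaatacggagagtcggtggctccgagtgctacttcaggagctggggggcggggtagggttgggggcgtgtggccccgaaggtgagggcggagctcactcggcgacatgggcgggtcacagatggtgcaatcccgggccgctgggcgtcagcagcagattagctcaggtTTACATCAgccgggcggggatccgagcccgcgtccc
Atf3 promoter, chr1:191183284-191183583, minus strand: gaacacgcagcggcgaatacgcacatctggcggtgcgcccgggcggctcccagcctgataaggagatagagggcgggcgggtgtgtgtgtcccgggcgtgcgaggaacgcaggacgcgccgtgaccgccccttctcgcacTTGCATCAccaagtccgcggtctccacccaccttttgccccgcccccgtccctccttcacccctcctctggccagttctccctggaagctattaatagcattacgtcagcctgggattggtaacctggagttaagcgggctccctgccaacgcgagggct
The match begins 110 bases before the start in Nupr1, 33 in Jdp2, 200 in Vldlr and 110 in Atf3, and 14 bases after it in Trib3. Of 27025 genes with a window, 1219 (4.51%) held the letters. Among the stress genes 8 of 24 (33.3%) did, including 6 of the 10 higher ones, and among the amino acid genes 8 of 23 (34.8%) did, including 3 of the 8 higher ones with a window. Some genes of these lists were placed in the pathway because of such elements, so the share describes the lists, and a match does not show binding.

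Nupr1, a small nuclear protein induced by many stresses, had levels of 11.31, 11.30 and 11.36 in IP20D-3 and 8.50, 8.23 and 7.42 in IP36D-3. It was 9.69-fold higher (difference 3.28 ± 0.28 SE, adjusted p = 5.93e-08), and the highest mean of the other 4 lines was 9.46. Jdp2, an AP-1 repressor, measured 8.06, 7.94 and 8.01 in IP20D-3 and 5.51, 5.43 and 4.84 in IP36D-3 (6.70-fold higher, adjusted p = 4.064e-08). Vldlr, the receptor for very low density lipoprotein and an ATF4 target, measured 7.48, 7.88 and 7.88 in IP20D-3 and 5.68, 5.45 and 4.45 in IP36D-3 (5.88-fold higher, adjusted p = 4.393e-07). The IP20D-3 arrays were close together in all of them, and the third IP36D-3 array was well below the first and second.

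Ddit3, which encodes CHOP, measured 9.95, 9.88 and 9.74 in IP20D-3 and 8.61, 8.23 and 7.32 in IP36D-3 (3.49-fold higher, adjusted p = 8.663e-06). Trib3, a pseudokinase that feeds back on ATF4, measured 10.38, 10.50 and 10.34 in IP20D-3 and 9.01, 8.83 and 7.94 in IP36D-3 (3.52-fold higher, adjusted p = 2.488e-05). Atf3 measured 7.82, 7.84 and 7.91 in IP20D-3 and 6.69, 6.39 and 5.40 in IP36D-3 (3.25-fold higher, adjusted p = 1.613e-05). The other higher genes were Stc2, a secreted glycoprotein (difference 1.88), the mTORC1 inhibitor Ddit4 (1.61), Cebpb (1.44) and Chac1, which degrades glutathione (1.31). In all 10 of the higher genes the third IP36D-3 array was the lowest of its line. Without it the difference of Nupr1 was 2.96 and that of Vldlr 2.18, while that of Chac1 was 0.76, which is no longer a call. Atf4, whose product is regulated mainly in translation, measured 12.15, 12.10 and 12.06 in IP20D-3 and 11.74, 11.66 and 11.19 in IP36D-3, a difference of 0.57 without a call.

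No chaperone gene of the response was called higher. Hspa5 (BiP), the main chaperone of the endoplasmic reticulum, measured 10.82, 10.83 and 10.76 in IP20D-3 and 11.79, 11.87 and 11.97 in IP36D-3, and was 2.10-fold lower (adjusted p = 2.426e-08). Differences of Hyou1 (-0.11), Creld2 (-0.06), Sdf2l1 (-0.49), Xbp1 (-0.21) and Dnajb9 (0.61) were not called. In the heat shock list 1 of 14 measured genes was called, namely Hsph1, a co-chaperone that was 2.18-fold lower (list median -0.28). The list of 25 measured p53 targets and cell cycle inhibitors and cyclins held no higher gene and 2 lower ones, which were the cyclin-dependent kinase inhibitor Cdkn1c (difference -1.25) and cyclin D2, Ccnd2 (-1.10), and its median was 0.01. The call of Ccnd2 was lost without the third IP20D-3 array. The p53 target Cdkn1a (p21) differed by 0.01.

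Aldh1l2, a mitochondrial enzyme of folate metabolism, had the second largest rise of all named genes. It measured 7.68, 7.70 and 8.19 in IP20D-3 and 4.40, 4.42 and 4.38 in IP36D-3, below the array median, with a fitted difference of 3.45 ± 0.23 (SE, adjusted p = 3.603e-09). Cth, which makes cysteine from cystathionine, measured 11.98, 11.997 and 12.23 in IP20D-3 and 9.98, 9.96 and 9.92 in IP36D-3 (4.33-fold higher, adjusted p = 4.157e-11). Slc7a1, a transporter of cationic amino acids, measured 10.84, 10.71 and 10.76 in IP20D-3 and 8.82, 8.70 and 8.70 in IP36D-3 (4.10-fold higher, adjusted p = 3.404e-09). In all 10 higher genes of the list IP20D-3 had the highest mean of the 6 lines. The others were the glycine transporter Slc6a9 (difference 1.61), Pck2 (1.45), Aldh18a1 of proline synthesis (1.37), Psph of serine synthesis (1.31), the neutral amino acid transporter Slc1a4 (1.25), Shmt2, which passes carbon from serine to folate (1.12), and Asns, asparagine synthetase (1.06). Serine synthesis genes Phgdh (0.68) and Psat1 (0.31) were not called. As with the stress genes, the third IP36D-3 array was the lowest of its line in 9 of the 10 higher genes. The first was the highest in 9. This order was not particular to the stress and amino acid lists. The third IP36D-3 array was also lowest in 8 of 11 higher pluripotency genes and in all 4 lower Nodal, BMP and Wnt genes. In the 5 lower sterol genes the first IP36D-3 array was the lowest. No call among these 10 genes was lost without the third IP36D-3 array.

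In the lists of sterol synthesis and of glucose use the calls were falls, with 1 exception. Of 20 measured genes of sterol synthesis none was higher and 5 were lower, and 18 of 20 had a negative difference (median -0.74). Hmgcs1, which makes the precursor of mevalonate, measured 9.37, 9.58 and 9.35 in IP20D-3 and 10.77, 10.99 and 11.05 in IP36D-3 (2.83-fold lower, adjusted p = 2.55e-08). Fdps, farnesyl diphosphate synthase, measured 9.35, 9.27 and 8.87 in IP20D-3 and 10.72, 10.73 and 10.83 in IP36D-3 (3.02-fold lower, adjusted p = 3.841e-08). Dhcr7, which completes cholesterol, was 3.07-fold lower, Idi1 2.85-fold lower and Insig1, the sterol sensor that holds back SREBP, 2.51-fold lower. All 5 were lowest in IP20D-3 among the 6 lines. In the fatty acid list 2 of 12 measured genes were lower and none higher (median -0.56), namely the desaturase genes Scd2 (difference -1.34) and Fads2 (-1.21).

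The list for glycolysis and the response to low oxygen had 6 lower genes and 1 higher gene among 24 measured (median -0.40). Slc2a1 (GLUT1), a glucose carrier, measured 9.66, 9.75 and 9.29 in IP20D-3 and 11.48, 11.56 and 11.56 in IP36D-3 (3.90-fold lower, adjusted p = 1.386e-10). Slc2a3, also on the list, differed by 0.10 and was not called. Hexokinase 2, Hk2, measured 9.33, 9.35 and 9.48 in IP20D-3 and 10.79, 10.82 and 10.79 in IP36D-3 (2.66-fold lower, adjusted p = 3.404e-09). Slc16a3 (MCT4), which exports lactate and was not on the list, measured 4.71, 4.86 and 5.21 in IP20D-3 and 7.38, 7.59 and 7.45 in IP36D-3, a difference of -2.54. Of the genes induced by the hypoxia factor HIF1, Ankrd37 fell by 1.97, the oxygen sensor Egln3 by 1.96, Bnip3 by 1.18 and Egln1 by 1.09. Ndrg1 (0.70), Adm (-0.33) and Car9 (-0.04) of the same list were not called. Vegfa, another HIF1 target and also an ATF4 target, was the higher gene, at 6.69, 7.03 and 6.87 in IP20D-3 and 6.16, 5.83 and 5.50 in IP36D-3 (difference 1.03, adjusted p = 2.269e-05). Its call was lost without the third IP36D-3 array, without the second IP20D-3 array and after repeated quantile normalisation. Ankrd37 and Egln1 lie on chromosome 8 and Hk2 on chromosome 6, where the medians of many genes were shifted, as described at the end. Apart from Hk2, no listed enzyme of the glycolytic chain was called. Differences were -0.98 for Ldha, -0.41 for Pkm, -0.22 for Pgk1, 0.04 for Aldoa and 0.72 for Pfkp.

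**Figure D3:**
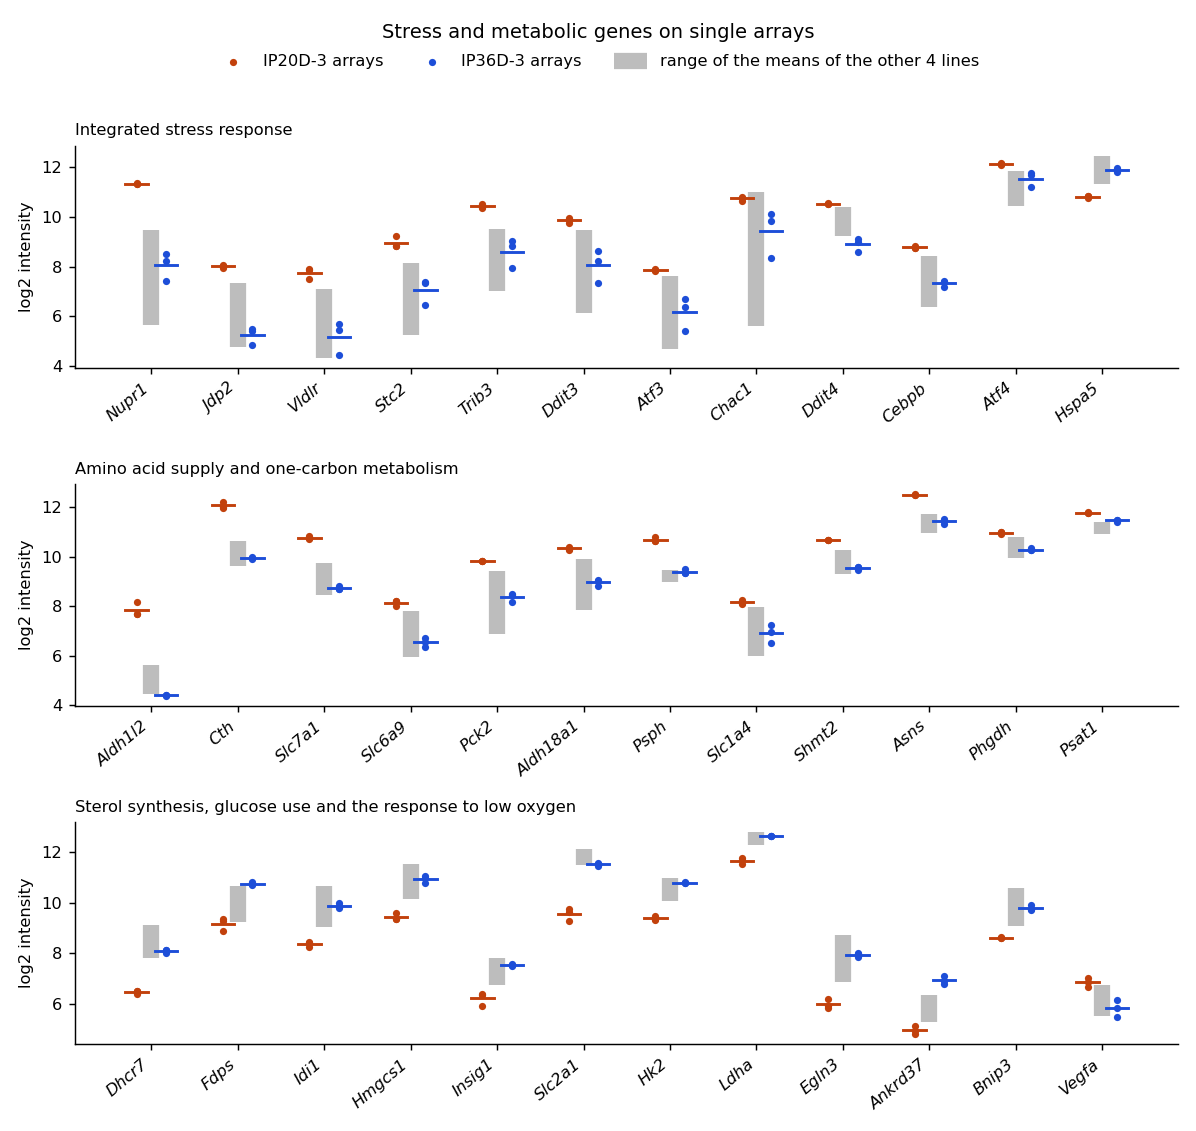
Log2 intensity on single arrays of IP20D-3 (orange, left of each pair) and IP36D-3 (blue), with line means as bars and the range of the means of the other 4 lines in grey. In the top panel the third IP36D-3 array is the lowest blue point of each stress gene that was called higher, and Hspa5 is lower in IP20D-3. In the lower panel all genes but Vegfa are lower in IP20D-3.

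Calls among genes of the contractile cytoskeleton were falls in IP20D-3, and genes of fibroblasts, which the feeder layer could add, were mostly dim. In the list of contractile genes and targets of SRF and YAP, 6 of 20 measured genes were lower, none was higher, and 19 had a negative difference (median -0.75). Ccn1 (CYR61), a secreted target of YAP, measured 7.79, 7.76 and 7.50 in IP20D-3 and 9.11, 9.04 and 8.98 in IP36D-3 (2.57-fold lower, adjusted p = 3.722e-09). The genes of actin-associated proteins Cnn1 (difference -1.37), Cnn2 (-1.34), Myl9 (-1.26), Tagln (-1.20) and Tpm1 (-1.11) were the other calls. The summed linear signal of the list lay between 7079.2 and 7278.6 on the IP20D-3 arrays and between 10684.6 and 11142.9 on the IP36D-3 arrays. Fibroblast genes did not follow this as a group. Of 34 measured fibroblast genes only Thbs1 was called (difference -1.10, but not without the third IP20D-3 array), the list median was -0.09, and the sum of the list, to which Fn1 adds most, lay between 5230.1 and 5542.8 in IP20D-3 and between 4231.0 and 4485.1 in IP36D-3. Collagen Col1a1 differed by -0.02 and was below the array median in both lines. In RNA from a whole culture, fewer cells of a type and less RNA per cell cannot be told apart.

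Among 29 measured interferon and MHC genes, 6 were lower and 1 was higher (median -0.19). The median was positive when only genes with a mean of at least 6 in either line were kept. Gbp2, a guanylate-binding protein induced by interferon, measured 3.80, 4.12 and 3.88 in IP20D-3 and 5.41, 5.71 and 5.69 in IP36D-3, levels below the array median in IP20D-3. Oasl2 (difference -1.95), Igtp (-1.42), Irgm1 (-1.28), the transcription factor Irf1 (-1.19) and Bst2, tetherin (-1.16), were the further falls. Bst2 lies on chromosome 8, where the median of the genes was shifted, as described at the end. For Igtp, IP36D-3 (mean 6.91) was above the range of the other 4 lines (5.63 to 6.11), and IP20D-3 (5.48) was just below it. Irf1 was well expressed, at 7.16, 7.19 and 6.92 in IP20D-3 and 8.33, 8.28 and 8.24 in IP36D-3. The higher gene was H2-Bl (difference 2.26), whose probe set may also read related MHC class I genes. Of the immediate early genes, 2 of 21 measured were higher (Atf3 and Klf10) and 2 lower (the RNA-binding protein gene Zfp36 and Ier3), with a median of -0.10. The call of Klf10 was lost without the second IP20D-3 array or the third IP36D-3 array.

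Lineage genes differed in single members. In the primitive endoderm list of 26 measured genes, Sox7 (difference 1.46) and the laminin gene Lama1 (1.06) were higher, and the endocytic receptors Cubn (-1.27) and Lrp2 (-1.26), their adaptor Dab2 (-1.24) and the proteoglycan Srgn (-1.13) were lower, for a median of -0.15. The summed signal of the 6 defining markers of this lineage lay between 155.2 and 183.0 in IP20D-3 and between 218.8 and 228.2 in IP36D-3, with Gata4, Gata6 and Sox17 below the array median or near it in both lines. Of the neural genes, Pax6 measured 5.82, 6.10 and 6.22 in IP20D-3 and 7.38, 7.52 and 7.42 in IP36D-3 (2.63-fold lower, adjusted p = 1.549e-07) and Olig1 was 2.31-fold lower, with 2 of 20 measured genes called and a median of -0.15. For Pax6, IP36D-3 (mean 7.44) was above the other 4 lines (5.16 to 6.94), and IP20D-3 was within their range. Olig1 was also highest in IP36D-3 (9.22), close to IP14D-101 (9.21). Nkx1-2 was the single call among 23 measured genes of the primitive streak and mesoderm (difference -1.55, median -0.03), at levels below the array median in IP20D-3. No gene was called among 21 measured genes of the trophectoderm (median -0.22), 10 of the 2-cell stage (median -0.09) and 32 Hox genes (median -0.05).

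Germ line genes, many of which are kept off in body cells by DNA methylation, had 7 higher genes and 1 lower among 29 measured (median 0.25). Tex14, needed for the bridges between germ cells, measured 9.13, 9.24 and 9.16 in IP20D-3 and 7.33, 7.40 and 7.10 in IP36D-3 (3.73-fold higher, adjusted p = 5.996e-10). Sycp3, a structural protein of meiotic chromosomes, measured 8.58, 8.73 and 8.17 in IP20D-3 and 6.71, 6.96 and 6.75 in IP36D-3 (3.22-fold higher, adjusted p = 1.096e-06). Its partners in the synaptonemal complex Syce1 (difference 1.46), Sycp2 (1.07) and Sycp1 (1.05), the sperm channel gene Catsperz (1.23) and the RNA-binding protein gene Dazl (1.01) were also higher, and Sycp2 was below the array median in both lines. Near the minimum difference, Dazl was not called without the first or second IP20D-3 array or the first IP36D-3 array, Sycp2 without the second IP20D-3 array, and Sycp1 without the first IP36D-3 array. Rhox5, a homeobox gene of the X chromosome, was 3.06-fold lower. All 8 of these calls had IP20D-3 at an end of the range of the 6 lines, as did most calls over all genes.

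Imprinted genes, which are read from 1 parental copy, were checked outside the Dlk1-Dio3 domain and inside it. Of 48 measured imprinted genes elsewhere, 2 were higher and 6 lower (median -0.14, but positive with a mean of at least 6 in either line). Zdbf2, a paternally expressed gene, measured 9.22, 9.26 and 9.27 in IP20D-3 and 7.52, 7.47 and 7.62 in IP36D-3 (3.29-fold higher, adjusted p = 9.708e-08). The other 4 lines averaged between 8.35 and 9.31, so here IP36D-3 was the line outside the range. Mkrn3, also paternal, was 2.27-fold higher. The lower genes were Gpr1 (difference -1.75), Dhcr7 (-1.62), Cdkn1c (-1.25), Nnat (-1.16), H13 (-1.11) and Mest (-1.04). Meg3 measured 5.33, 5.11 and 5.24 in IP20D-3 and 5.95, 6.002 and 5.76 in IP36D-3, while no other line had a mean under 9.71. All arrays of IP20D-3 were below those of IP36D-3, but the difference of -0.68 (95% interval -1.03 to -0.32) was not called. Dlk1 (-0.44), Mirg (-0.21) and Rian (-0.16) were not called either (list median -0.33). Of 15 measured genes of the X and Y chromosomes, Ftx, a non-coding RNA near Xist, was lower (difference -1.08, lost as a call without the second IP36D-3 array, list median 0.07), and Xist differed by 0.50 without a call. The Y-linked genes Uty (0.99) and Eif2s3y (0.95) were higher by just under the minimum and were both called without the third IP20D-3 array. Differences of Kdm5d (0.15) and Usp9y (-0.13), which are also Y-linked, were small and not called. Both genes had a mean under 6 over all arrays. A change can be hidden at a low level, so these values cannot decide whether they shared the rise of Uty and Eif2s3y.

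**Figure D4:**
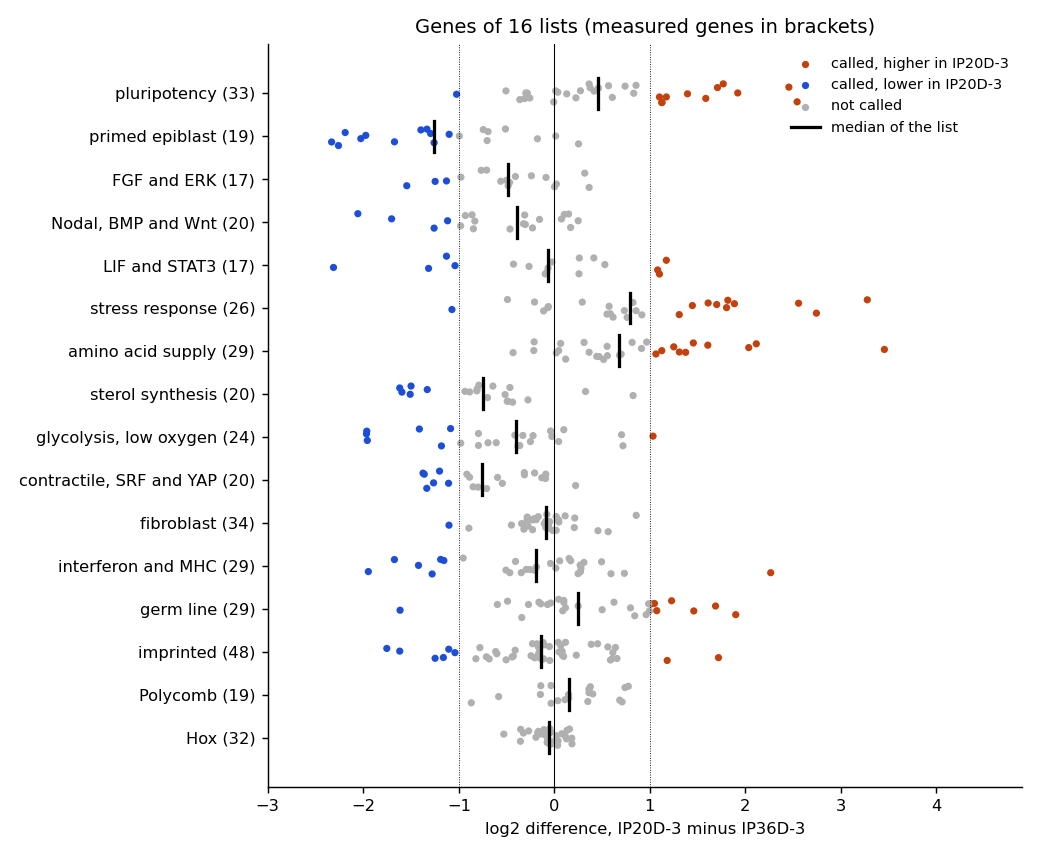
Log2 differences, IP20D-3 minus IP36D-3, of the measured genes of 16 lists, 1 point per gene, with the list median as a bar and dotted lines at a difference of 1 in either direction. The lists of stress response and amino acid supply reach farthest to the right and the primed epiblast list lies mostly to the left, while fibroblast and Hox genes centre near 0.

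Among the 12 largest rises and the 12 largest falls, many genes belonged to none of the lists. Atp12a, the catalytic subunit of a proton and potassium pump, measured 7.89, 8.06 and 8.19 in IP20D-3 and 3.97, 4.03 and 3.75 in IP36D-3, where it was below the array median. Its fitted difference of 4.13 ± 0.26 (SE, adjusted p = 1.478e-09) was the largest of the named genes, and the highest mean in another line was 5.27. Hhip, a membrane protein that binds Hedgehog ligands, measured 6.22, 6.66 and 7.03 in IP20D-3 and 3.82, 3.69 and 3.45 in IP36D-3 (difference 2.99), with 3 of 3 further probe sets called the same way. Aff1, a scaffold of the super elongation complex, measured 9.46, 9.52 and 9.55 in IP20D-3 and 6.71, 6.72 and 6.51 in IP36D-3 (7.27-fold higher, adjusted p = 3.749e-11). The growth factor Pdgfc was 6.08-fold higher, and differences were 3.03 for the actin-binding protein gene Pof1b, 2.61 for the lipase inhibitor gene G0s2 and 2.58 for the glycosyltransferase gene B4galnt2.

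Among the largest rises were also genes in which IP36D-3 lay below the range of the other lines. Ephx2, soluble epoxide hydrolase, measured 8.63, 8.84 and 9.04 in IP20D-3 and 5.98, 5.78 and 5.74 in IP36D-3 (7.99-fold higher, adjusted p = 8.267e-12), and the other 4 lines averaged 7.05 to 7.27, so that both lines were outside their range, on opposite sides. Rpl39l, a paralog of the ribosomal protein gene Rpl39 with which a probe set may share sequence, measured 10.24, 10.26 and 10.14 in IP20D-3 and 7.22, 7.40 and 7.45 in IP36D-3 (7.24-fold higher, adjusted p = 8.267e-12). The other lines averaged between 8.45 and 10.63, which put IP20D-3 inside their range and IP36D-3 below it. Pdgfc and Aff1 were outside the range of the other 4 lines in both lines, as Ephx2 was. Their means in IP36D-3 were 6.81 and 6.64, against lowest means of 7.31 and 6.82 in the other lines.

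Cap1, an actin-recycling protein found in most cells, had the largest fall of the named genes. It measured 4.87, 5.81 and 6.01 in IP20D-3 and 9.32, 9.26 and 9.31 in IP36D-3, while the other 4 lines averaged between 8.77 and 10.07. The difference was -3.73 ± 0.19 (SE, adjusted p = 1.057e-10), and 1 of 1 further probe sets of Cap1 was called lower too. Fgfbp1, a carrier that releases FGFs from the matrix, measured 4.34, 4.28 and 4.73 in IP20D-3 and 7.73, 7.84 and 8.06 in IP36D-3 (difference -3.43, adjusted p = 1.312e-12). Trh, the precursor of thyrotropin-releasing hormone, measured 5.89, 5.83 and 5.88 in IP20D-3 and 9.27, 9.05 and 9.17 in IP36D-3 (9.85-fold lower, adjusted p = 1.18e-11). Apela, a peptide hormone for the apelin receptor, measured 7.17, 7.17 and 7.37 in IP20D-3 and 10.37, 10.40 and 10.48 in IP36D-3 (9.03-fold lower, adjusted p = 1.14e-13). IP20D-3 was below all other lines in each of these genes. Differences were -2.93 for the hyaluronan synthase gene Has2, -2.73 for the pseudokinase gene Trib2, -2.58 for Hes6, -2.52 for the carbonic anhydrase gene Car4, -2.44 for Vrtn and -2.40 for Ccnb1ip1, a gene of meiotic crossing over.

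Chromosomes were then compared by the genes with a mean of at least 6 over all arrays, in the gene order of RefSeq. Over all such genes outside chromosomes 6 and 8 the median difference was -0.04, and the medians of the other numbered chromosomes and of X ran from -0.07 to 0.04. Chromosome Y had only 2 such genes, with a median of 0.97. Outside chromosomes 6 and 8, 54.3% of such genes had a negative difference. Chromosome 8 had a median of -0.30 over 500 genes, of which 386 (77.2%) were negative. Relative to the mean of the other 4 lines, its median on single arrays was 0.17, 0.20 and 0.19 in IP20D-3 and 0.48, 0.52 and 0.51 in IP36D-3. Over all genes of that level the same medians were 0.03, 0.05 and 0.05 in IP20D-3 and 0.10, 0.13 and 0.10 in IP36D-3. When the gene order was cut into 10 equal parts, the median of IP20D-3 relative to the other lines ran from 0.04 to 0.38 and that of IP36D-3 from 0.37 to 0.63, and IP20D-3 was below IP36D-3 in each part. In parts 8 and 10 the median of IP20D-3, 0.04 and 0.05, was within the range over all genes. With genes of any level included, 39 of 932 genes of chromosome 8 (4.18%) were called lower and 12 (1.29%) higher in IP20D-3. The shares over all genes were 1.89% lower and 2.36% higher. Named calls of this chromosome ran both ways, with Hhip, Klf2, Mef2b (difference 1.66) and Zmat4 (1.63) higher and Apela, Ankrd37, Plekha2 (-1.76) and Pdgfrl (-1.55) lower.

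On chromosome 6 the difference lay in a stretch. From Agk to Eogt, parts 3 to 6 of 10 equal parts of its gene order, the median difference over 160 genes was -0.57, or 1.49-fold, and 147 of them were negative. In this stretch 26 genes (16.2%) were called lower and none higher, including Trh and Hk2. Over all genes of that level 2.82% were called lower and 2.68% higher, and 56.1% had a negative difference. Relative to the other 4 lines, the median of the stretch on single arrays was -0.41, -0.40 and -0.43 in IP20D-3 and 0.15, 0.18 and 0.16 in IP36D-3, so IP20D-3 was the line below. On the rest of chromosome 6 the median was 0.01 over 241 genes, with 8 lower and 13 higher. Its parts were not alike. Part 2, next to the stretch, had a median of -0.22, with 4 genes lower and 1 higher. Part 10 had a median of 0.08, with none lower and 6 higher. The limits of the stretch were set after the values were seen, no test was made of it, and DNA was not measured. Without chromosomes 6 and 8, 659 genes were called, 397 higher and 262 lower. The stretch also held the list genes Ezh2, Gadd45a, Gars, Gata2, Hoxa7 and Mthfd2. Their differences were not alike, with -0.58 for Ezh2, the catalytic subunit of a Polycomb complex, -0.36 for Gata2, -0.17 for Hoxa7, -0.07 for Gadd45a, 0.02 for Gars and 0.55 for Mthfd2, and none of them was called.

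**Figure D5:**
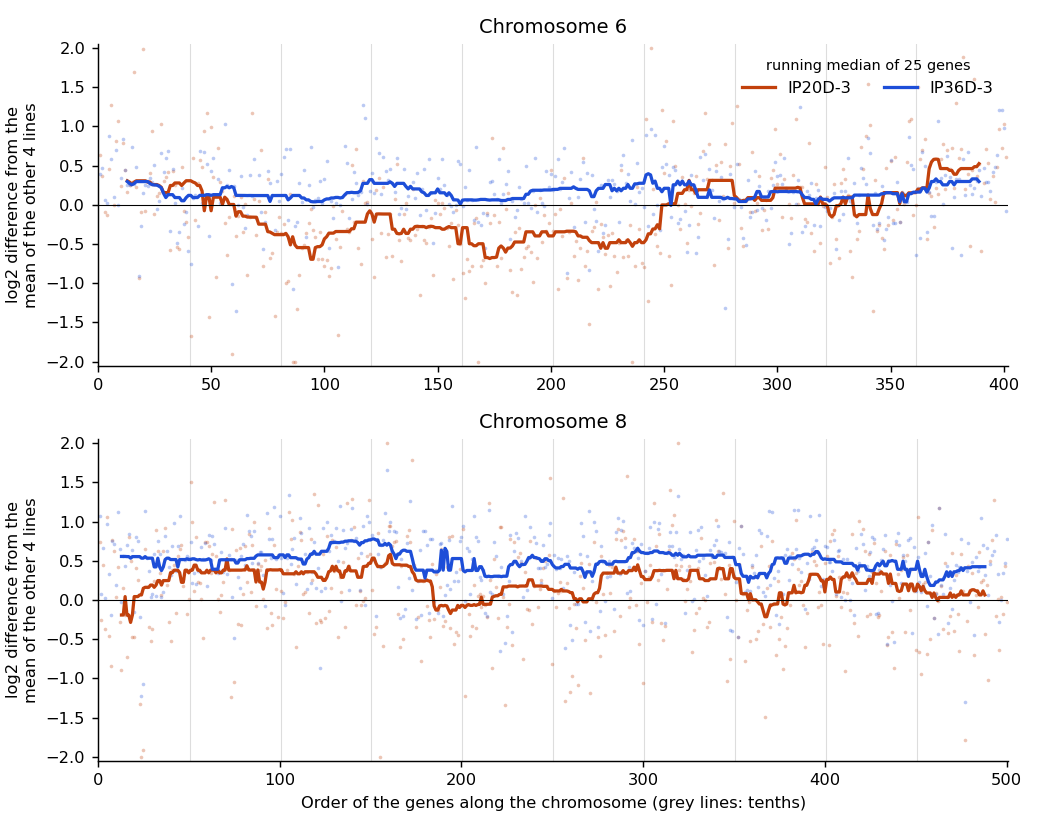
Log2 difference of IP20D-3 (orange) and IP36D-3 (blue) from the mean of the other 4 lines for genes with a mean of at least 6, in gene order on chromosome 6 (top) and chromosome 8 (bottom). Points are genes, drawn at the edge where the difference is beyond the axis, lines are running medians of 25 genes, and grey lines mark 10 equal parts. On chromosome 6 the orange line runs below the blue line in parts 3 to 6 and meets it after that, and on chromosome 8 the blue line stays above the orange line over most of the length.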

How the data were processed

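Total RNA of 6 mouse lines with 3 arrays each was labelled and hybridised to Affymetrix arrays. The authors deposited linear probe set intensity values made with RMA (background correction, quantile normalisation and probe summary), as the design text and the submitters' processing notes state, and no version of RMA is named there. A companion table pairs probe sets with genes. Of 45101 probe sets, 64 controls were left out, and 34945 with 1 gene symbol were used. The 932 with several symbols and 9160 with none stayed unnamed. Current symbols were looked up by gene ID in RefSeq for 34741 of them, and 0 changed.

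The deposited intensity values were put on the log2 scale and fitted with limma 3.58.1 in R 4.3.3, with 1 mean per line over 18 arrays (12 residual degrees of freedom), and p-values were adjusted by Benjamini-Hochberg over all 34945 probe sets. Of several probe sets of a gene (9010 of 18193 genes) the one with the highest mean stood for it. A call needed an adjusted p under 0.05 and a difference of at least 1 in size. Intervals of 95% use the SE of the fit and the residual degrees of freedom. On simulated data with 200 of 34945 probe sets changed by 1.5 for this comparison, 99% were recovered with 1 false call. The simulated noise was independent between arrays. Calls between 1 and 1.5 in size are not covered by this, and only 220 of the 772 genes reached 1.5.

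Named genes were the 12 largest rises and falls, up to 4 called members of a list and up to 8 of chromosome 8. Each had a mean of at least 6 in the higher line and no overlap between arrays, and placeholder symbols were left out. Core pluripotency genes, Dlk1-Dio3 genes, and members that went against their list were added in any case. Further list members and the chromosome 6 stretch were named after their values were seen. The members and all 29 lists were chosen with earlier results of these data known, so lists are described by counts and medians and not tested. Between IP20D-3 and IP36D-3, the deviations of same-numbered arrays correlated at 0.273, 0.144 and 0.0343. Those of differently numbered arrays ran from -0.211 to 0.0646, so the first and second pairs lay above them and the third did not. No label says that a number marks a shared culture or day, and the arrays were not paired in the fit. Alternatives are given in the closing section. Promoter windows are from RefSeq, build GRCm38.p6.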

Additional observations from a re-analysis of the deposited data

How the results depend on the processing

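The direction of every called named gene was kept under all alternatives run, which varied the arrays in the fit, the log scale, the normalisation, the weights, the probe set, the thresholds and the chromosomes kept. Against 772 genes called (429 higher, 343 lower), log2(value + 16) gave 479 (269 higher, 210 lower), a minimum difference of 1.5 gave 220 (138 higher, 82 lower), and no minimum difference gave 6601 (2844 higher, 3757 lower). Leaving out each array in turn gave 737 to 818 calls, 395 to 463 higher and 328 to 372 lower. The fit with a replicate block gave the same 772 calls, although the third pair of same-numbered arrays correlated at 0.0343 and the third IP20D-3 array correlated better with the second IP36D-3 array than with the third. The other counts over all genes stayed within 1.5 times. Counts of short lists moved more. Without IP20D-3 replicate 2 or IP36D-3 replicate 3 the number of higher genes changed by over 1.5 times in 3 of 29 lists each, and 4 to 8 list medians per array left out moved beyond the spread between arrays. The medians of the DNA methylation and p53 lists, which lay near 0, changed sign under some of these omissions. With a mean of at least 6 in either line, 13 list medians moved, those of the interferon, Hox and other imprinted lists changed from negative to positive, and no gene of the 2-cell and Dlk1-Dio3 lists was left.

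Directions of single genes changed only where no call existed. With each array left out in turn, Pou5f1 ran from -0.0048 (without IP20D-3 replicate 2) to 0.0405, with -0.0011 without IP36D-3 replicate 3, and Mirg ran from -0.4522 to 0.0095 (without IP36D-3 replicate 3). With log2(value + 16) the calls of Sox7, Lama1, Vegfa, Dppa3, Ftx, Ccnd2, Ier3, Dab2 and Irgm1 were lost. Calls that depended on 1 array were those of Dppa3 (IP20D-3 replicate 1), Vegfa and Klf10 (IP20D-3 replicate 2), Ccnd2 (IP20D-3 replicate 3), Ftx (IP36D-3 replicate 2), and Tet2, Vegfa and Klf10 (IP36D-3 replicate 3). Of the further list genes, Dazl, Sycp1, Sycp2, Socs3, Thbs1 and Chac1 did so too. Leaving out the third array of both lines, which had the highest 18S signal of their lines and was an alternative chosen after seeing the data, gave 716 calls (393 higher, 323 lower), of which 662 were among the 772. The representative probe set mattered for Klf4 and Ccnd2. The number of arrays limits the precision, and levels near or below the array median are not shown to be above background.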
